A study of Mus musculus with 8 samples.

Results

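The comparison described here sets spleen XCR1+ dendritic cells that had gained CCR7 but not an Il12b reporter against immature XCR1+ dendritic cells that had neither. Its members were chosen from the labels, not from measured values: 3 samples labelled CCR7+ and reporter-negative, named homeostatically matured by the submitters and called CCR7+Il12b- here, and 3 samples labelled CCR7- and reporter-negative, called immature here, which together are 6 of the 8 samples of the series. All samples came from untreated mice carrying an enhanced yellow fluorescent protein reporter in Il12b, the gene of the p40 subunit shared by interleukin 12 and interleukin 23, so the controls carry the reporter allele too. Cells without lineage markers, with no or low BST2, high CD11c and CD8α, were sorted by flow cytometry, which means that the cells counted as reporter-negative are those whose fluorescence did not pass the gate. The other 2 samples, CCR7+ and reporter-positive (CCR7+Il12b+), entered the fit and are used here only beside single genes. The sources used here leave out age, sex and the number of mice behind a sample. Whether replicates are separate mice is not stated either, and p-values then reflect only how far these samples spread, possibly for technical reasons.

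XCR1+ dendritic cells, also called type 1 conventional dendritic cells, take up dead cells and present their antigens to CD8 T cells. A share of them matures without infection: they gain CCR7, the receptor that draws dendritic cells towards T cell areas, and lose part of the equipment for taking up antigen. The immune side of this step is the part usually described. The account below follows the genes outside the usual immune lists, namely those of surface contact, signalling, transport, metabolism, organelles, cytoskeleton, gene expression and protein turnover.

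Each value is a log2 expression value per gene as deposited, and each difference is the CCR7+Il12b- mean minus the immature mean, with the standard error (SE) of a limma fit and a p-value adjusted for 19938 genes after Benjamini and Hochberg. A gene is said to rise or fall where the adjusted p was under 0.05. A background mark of 4.98, the level under which 95% of 1194 olfactory and vomeronasal receptor genes lay, separates levels that can be read from those that cannot. Where the mean of a named gene lay below the mark in 1 group, the change is given as a bound, with the mark standing in for each sample of that group that lay below it. In bulk RNA, fewer cells of a kind and less RNA per cell cannot be told apart.

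The median of the arrays lay between 5.25 and 5.46. On the first principal component, which held 77.1% of the variance, the 3 immature samples were between -55.8 and -47.8 and CCR7+Il12b- replicates 1 and 2 at 8.2 and 13.4. CCR7+Il12b- replicate 3 stood apart at 30.1, on the way to the 52.2 and 53.6 of the CCR7+Il12b+ samples, and it was the sample of its group farthest from the immature mean in 3092 of the 4706 genes that passed the test. Counts without that sample are therefore given where they matter. The amount of RNA that was amplified was 3 or 20 ng per sample, and the sources used here do not tie the amounts to samples, so input and group cannot be told apart.

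The 4 genes that mark the fraction followed its label. Ccr7 read 8.50, 8.86 and 8.56 in the immature samples and 12.22, 12.25 and 12.20 in the CCR7+Il12b- samples, Fscn1 and Relb rose by 4.54 and 2.98, and Cd63 rose at least 67.5-fold. Ccr7 was part of the sort, so its difference checks the label and is no finding. The Il12b transcript read 6.88, 7.09 and 7.11 and then 10.84, 10.82 and 10.77, so it was higher in the cells sorted as reporter-negative too. All 12 markers of XCR1+ dendritic cells stayed above the mark, with 9 lower and 1 higher, and their mean level was 10.2 to 10.4 in the immature and 8.96 to 9.66 in the CCR7+Il12b- samples. Of the lists of other cells, that of CD11b+ dendritic cells moved most, with 7 of 12 markers higher and 1 lower. Its mean level was 5.71 to 6.14 in immature and 6.63 to 6.80 in CCR7+Il12b- samples. The list was led by Tmem176a (2.84 ± 0.17), and its other rises included Tmem176b (2.25), Ltb (1.24), Sirpa (1.08), Esam (1.04) and Irf4 (1.02). Cd209a was the marker that fell (-1.02). Itgam, which encodes CD11b itself, read 4.93, 5.01 and 5.34 against 5.23, 5.18 and 5.06, and Mgl2 and Clec10a were below the mark throughout. Among B cell markers 3 of 11 rose and 1 fell. Ms4a1, which encodes CD20, rose by 1.51 ± 0.17, Cd79a lay below the mark in every sample and the list's mean level was 5.19 to 5.37 against 5.42 to 5.71. The T, NK, neutrophil, erythroid and stromal lists had 0 to 1 members higher and 0 to 1 lower, monocyte and macrophage markers had 3 of 12 higher and 3 lower, and plasmacytoid markers 1 of 9 higher and 4 lower. Among the monocyte and macrophage markers Spic and Vcam1 rose by 3.15 ± 0.22 and 2.57 ± 0.17, and Adgre1 rose too. Ccr2, Lyz2 and Cd14 of that list fell, with differences of -1.94, -1.45 and -1.05. The part of such cells in the results below was not tested.

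In all, 4706 of 19938 genes passed the test, which is 23.6% of the genes. Of these, 1814 (9.1%) were higher and 2892 (14.5%) were lower in CCR7+Il12b- cells, and 4448 belonged to no immune list. The immune lists hold 648 of the 19938 genes, so a large count outside them follows from their size. Falls were more frequent and rises were larger. The median called difference was 0.70 upwards and -0.72 downwards, but 142 genes rose by at least 2 on the log2 scale against 17 that fell by as much, and 43 against 1 passed 3. Of the 142, 108 lay outside the immune lists, so for the number of genes such rises were rarer outside the lists than in them. In the 4 immune lists 22.1% to 57.8% of the members rose, against 9.1% of all genes. The mean of 179 rising genes went from below to above the mark, and the mean of 119 falling genes went the other way. The median difference over all genes was 0.06. Without CCR7+Il12b- replicate 3 the calls were 1420 higher and 2175 lower.

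**Figure D1:**
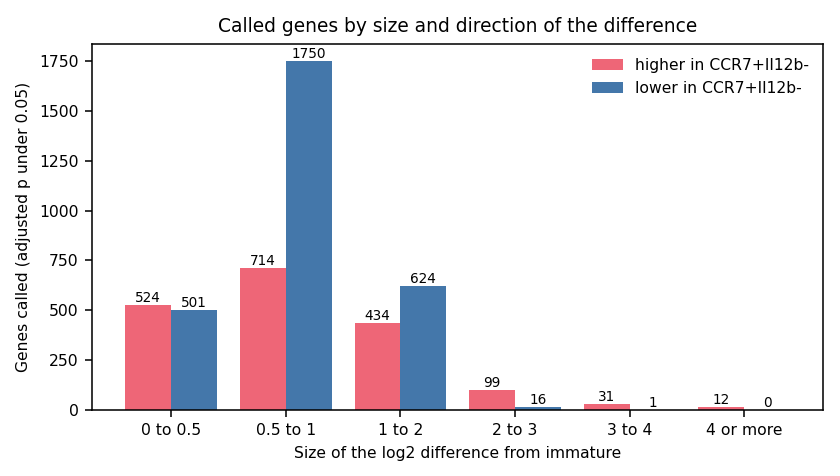
Number of genes called higher or lower in CCR7+Il12b- than in immature cells (vertical axis), by the size of the log2 difference (horizontal axis). Falls outnumber rises between 0.5 and 1 (1750 against 714), and rises outnumber falls from 2 upwards, with 12 against 0 at 4 or more.

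Outside the immune lists, the largest rises were genes of membrane binding, transport, sulfate activation and second messengers that were at or near background in immature cells. Anxa3, an annexin that binds membranes when calcium is present, read 4.58, 4.72 and 4.98 in the immature samples and 10.46, 10.40 and 10.71 in the CCR7+Il12b- samples. It rose by 5.76 ± 0.15 (adjusted p = 6.95e-09), at least 46.6-fold. Slco5a1, a member of the organic anion transporter family, went from 4.21, 4.18 and 4.10 to 8.74, 8.88 and 9.60, at least 17.1-fold higher (adjusted p = 4.34e-08). For both genes the groups were far apart and replicate 3 was the highest of its group.

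Nudt17, a Nudix hydrolase, the class of enzymes that cleave nucleoside diphosphate linkages, read 4.78, 4.80 and 4.88 and then 9.59, 9.29 and 9.81, at least 24.0-fold higher (adjusted p = 2.64e-08). Papss2, the enzyme that makes the activated sulfate used by all sulfotransferases, read 4.96, 4.64 and 5.07 and then 9.08, 8.95 and 9.65, at least 18.6-fold higher (adjusted p = 5.79e-08). Adcy6, an adenylyl cyclase that makes cyclic AMP, read 5.13, 6.01 and 5.26 and then 9.40, 9.62 and 10.22, a difference of 4.28 ± 0.24. The immature samples differed among themselves for Adcy6, with replicate 2 highest, but stayed well below the other group. Sema6d, a membrane-bound semaphorin known from axon guidance, read 4.31, 4.13 and 4.27 and then 8.33, 8.31 and 8.85, at least 11.5-fold higher (adjusted p = 2.77e-08). Atxn1, a nuclear protein known from spinocerebellar ataxia, rose at least 10.5-fold, and its 2 rows on the array differed by 4.16 and 4.94.

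Gclc, the catalytic subunit of the enzyme that begins glutathione synthesis, was already readable in immature cells at 7.80, 7.48 and 7.95 and rose to 11.49, 11.48 and 11.69, a difference of 3.81 ± 0.14. Mreg, melanoregulin, which acts in the movement of pigment granules and of phagosomes, rose by 3.93 ± 0.17, from 5.50, 6.11 and 6.05 to 9.62, 9.79 and 10.03. The tetraspanin Tspan3 rose by 3.47 ± 0.12 and the bicarbonate exchanger Slc4a8 by 3.33 ± 0.20. Stap2, a signalling adaptor, rose by 3.85, Asprv1, an aspartic protease known from the epidermis, by 3.68, and Gca, the calcium-binding protein grancalcin, by 3.62. The remaining members of the 20 largest rises were Zfp872 and Heatr9, at least 13.2-fold and 8.44-fold higher, Zmynd15, Lad1 and Mab21l3, with differences of 3.50, 3.46 and 3.34, and the marker Fscn1. None of the 20 overlapped between the groups, which was part of the rule for naming them.

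The 20 largest falls were smaller than the rises and mostly left a readable level. Serpinb10 was the exception. This intracellular serine protease inhibitor read 7.69, 7.68 and 7.95 in the immature samples and 4.51, 4.76 and 3.73 in the CCR7+Il12b- samples, all below the mark, at least 6.93-fold lower (adjusted p = 2.23e-06). Its relatives Serpinb2, also known as plasminogen activator inhibitor type 2, and Serpinb8 fell, with differences of -2.78 ± 0.23 and -1.96 ± 0.16. Anxa1, an annexin known for restraining inflammation, read 8.83, 9.05 and 9.15 and then 6.71, 6.74 and 5.96, so 2 annexins lay among the largest changes in opposite directions. Nifk and Sdad1, both nucleolar proteins of ribosome assembly, read 8.09, 8.22 and 8.32 and 10.05, 9.65 and 9.75 in immature cells and 6.82, 5.87 and 5.53 and 8.08, 7.74 and 7.23 in CCR7+Il12b- cells. In both, replicate 3 was the lowest of its group.

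Several of the falls concern signals that a cell receives from lipids and nucleotides. Cysltr1, a receptor for cysteinyl leukotrienes, fell by 2.05 ± 0.16, from 7.03, 7.58 and 6.89 to 5.19, 5.01 and 5.13. P2ry6, the receptor for extracellular UDP, fell by 2.01 ± 0.34, and Entpd1, the ectoenzyme CD39 that removes extracellular ATP, fell by 1.96 ± 0.22. Hpgd, which inactivates prostaglandins, fell by 1.94 ± 0.16 and read 8.66, 8.12 and 8.54 and then 6.74, 6.49 and 6.27. The other large falls were Unc119, a carrier of lipid-modified proteins (-2.10), Rnf144b, a ubiquitin ligase (-2.09), Arhgap18 (-2.05), Map2k6, an activator of p38 (-2.03), Ocstamp, known from the fusion of osteoclasts (-1.97), and Tgfbi, a secreted matrix protein (-1.95). Smim26, Ipcef1, Cbr3 and Cyb5a completed the 20, with differences of -2.18, -2.03, -1.95 and -1.94.

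**Figure D2:**
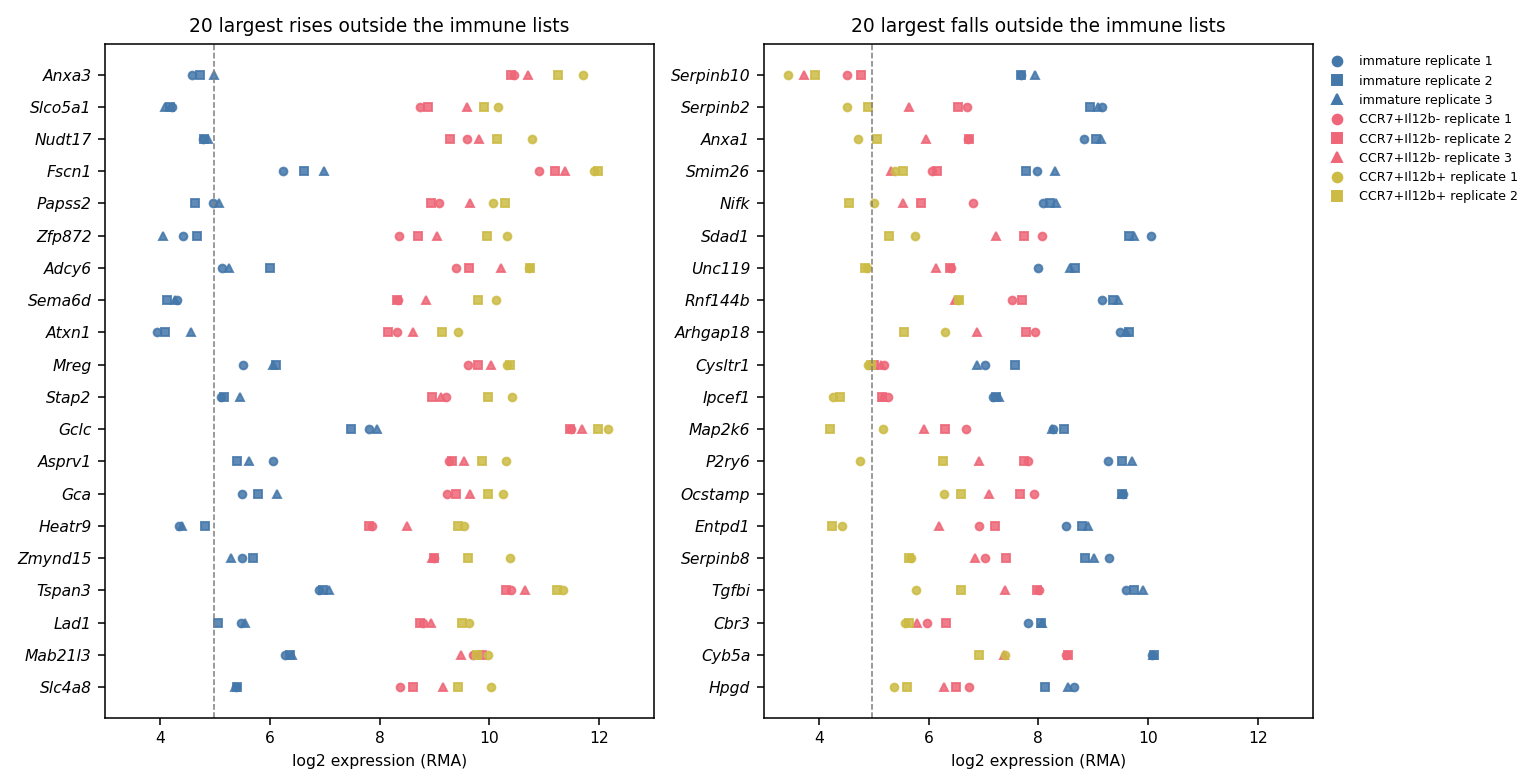
Log2 expression (horizontal axis) of the 20 largest rises and 20 largest falls outside the immune lists in each of the 8 samples, with colour for the group and shape for the replicate; the dashed line is the background mark of 4.98. Immature and CCR7+Il12b- samples do not overlap for any gene shown, and the CCR7+Il12b+ samples are drawn for reference.

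For some of these genes the CCR7+Il12b+ samples lay further from the immature level, and for others no further difference passed the test. Both comparisons share the CCR7+Il12b- samples, so their values are only set side by side. Sema6d differed by 4.26 between CCR7+Il12b- and immature cells and by 1.46 ± 0.17 (adjusted p = 0.000757) between CCR7+Il12b+ and CCR7+Il12b- cells. Entpd1 differed by -1.96 and by -2.45 ± 0.24 (adjusted p = 0.000331). Mab21l3 differed by 3.34 and by 0.18 ± 0.13 (adjusted p = 0.575), and Gclc by 3.81 and by 0.52 ± 0.15 (adjusted p = 0.0683). Cysltr1 differed by -2.05 and by -0.19 ± 0.18 (adjusted p = 0.687).

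To read the change by function, 60 lists holding 4896 distinct genes were set against the whole array. Of these genes, 618 rose and 1194 fell. At least 25% of the members fell in 25 lists, and in 15 of those under 7% rose. At least 20% of the members rose in 13 lists. The lists with the lowest medians belonged to the making of ribosomes and proteins, to mitochondria and to the endoplasmic reticulum. The highest medians, only 0.14 to 0.17, belonged to regulators of Ras, nuclear receptors, ion channels, matrix enzymes, guidance molecules and adhesion. The median was 0.06 over all genes and 0.10 over olfactory and vomeronasal receptor genes. These are counts set beside the share over all genes, and no test compares a list with other genes. The share over all genes includes 7357 genes with both means below the mark, of which 189 passed the test. It is therefore lower than the share over readable genes, and a list of mostly readable genes can exceed it for that reason. Where a list lies near the share over all genes, its counts describe single members and not the list.

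**Figure D3:**
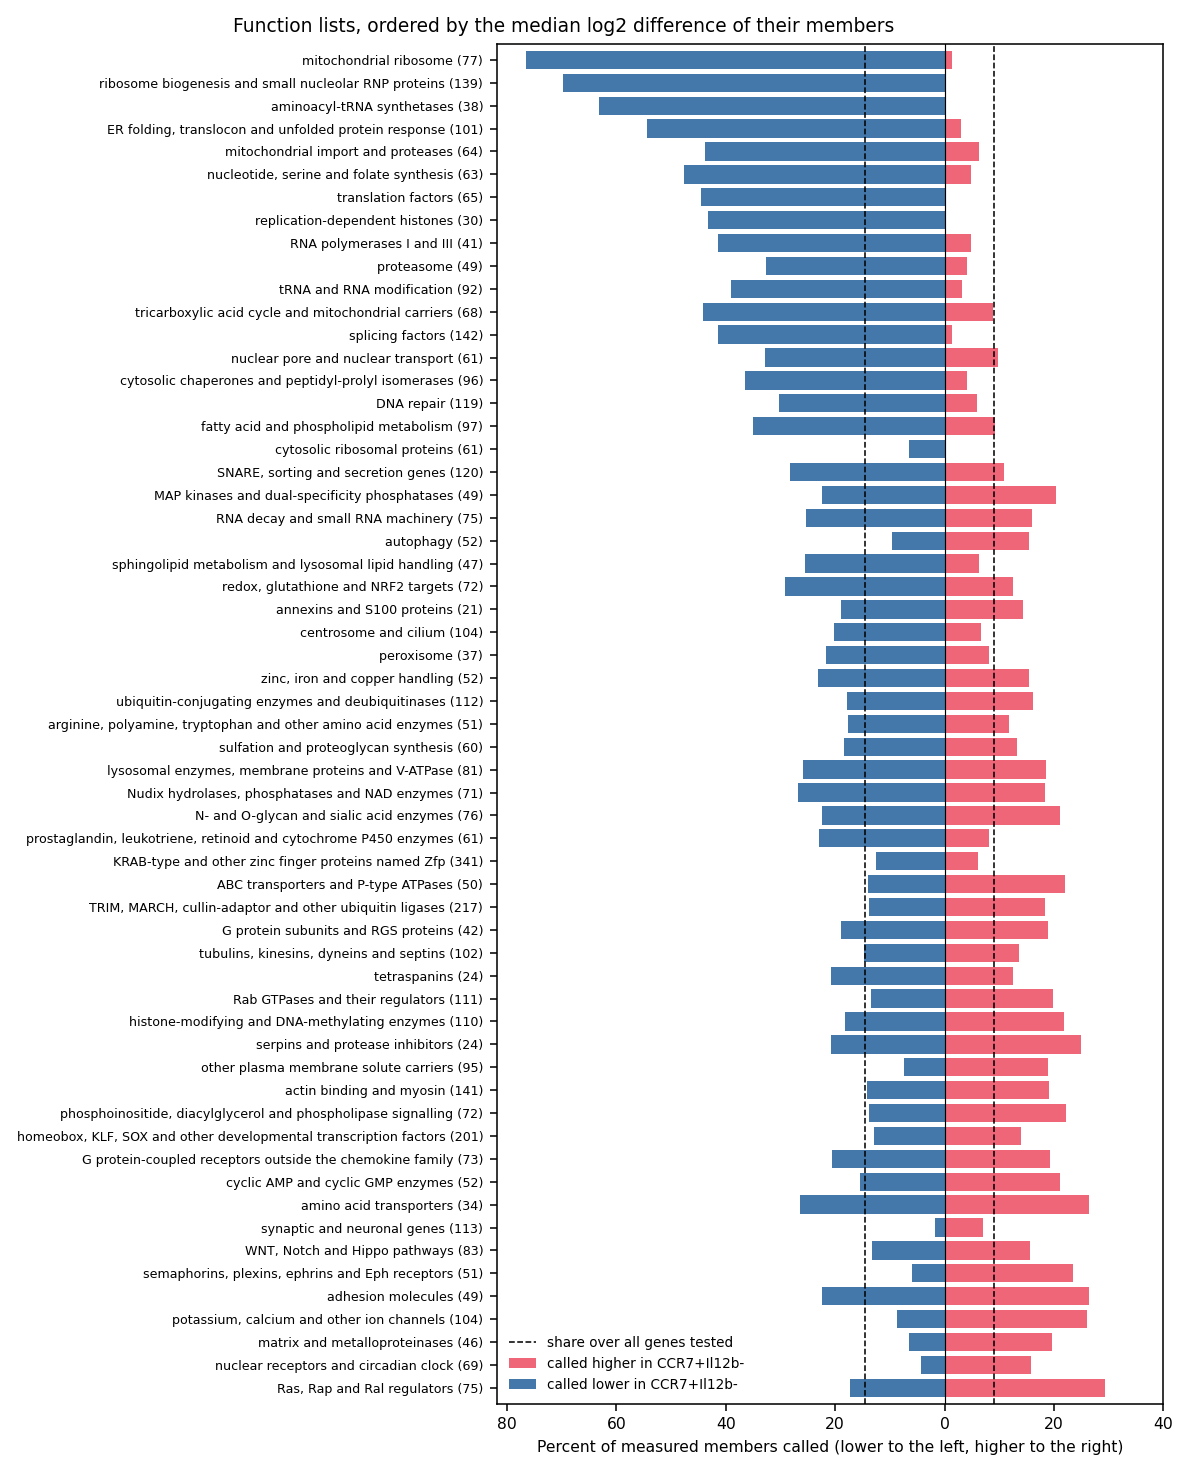
Percent of measured members called lower (blue, to the left) or higher (red, to the right) in CCR7+Il12b- than in immature cells for 59 of the 60 function lists, with the number of members in brackets and the lists ordered by their median log2 difference; dashed lines show the shares over all genes, 14.5% lower and 9.1% higher. The mitochondrial ribosome list is at the top, with 59 of 77 members lower and 1 higher, and the list of Ras, Rap and Ral regulators is at the bottom, with 22 of 75 higher and 13 lower.

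Genes of ribosome assembly fell and none of them rose. Of 139 genes of ribosome biogenesis, all above the mark, 97 fell and 0 rose (14.5% of all genes fell), with a median difference of -0.65. Nifk, Sdad1 and Dkc1 had the largest differences. Dkc1, the pseudouridine synthase of small nucleolar ribonucleoproteins, read 7.04, 7.38 and 7.35 in the immature samples and 5.69, 5.40 and 5.12 in the CCR7+Il12b- samples, a difference of -1.85 ± 0.15 (adjusted p = 1.08e-05). Of the 41 subunits and factors of RNA polymerases I and III, which transcribe ribosomal and transfer RNA, 17 fell and 2 rose. Polr1a, the largest subunit of polymerase I, fell by 1.38 ± 0.14, while Polr3c, a subunit of polymerase III, rose by 1.56 ± 0.12. Of the 61 proteins of the finished cytosolic ribosome, 4 fell and 0 rose, and the median was -0.08. Of these 4, Rpl14 fell by 0.85 ± 0.15, and the count was 1 to 2 without replicate 2 or 3 of either group.

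Genes acting between transfer RNA and protein also fell more often than they rose, beside 14.5% and 9.1% of all genes. Of 38 aminoacyl-tRNA synthetases and their partners, 24 fell and 0 rose, led by Farsb, a subunit of the phenylalanine enzyme (7.92, 8.09 and 8.29 against 7.0, 6.64 and 6.27), and by the scaffold Aimp2 (-1.34 ± 0.15). Of 65 translation factors 29 fell and 0 rose. Among them were Eif1b (-1.26), Eif2a (-1.08) and Eif2b2 (-1.07), which act at initiation. Of 92 genes that modify transfer and other RNA, 36 fell and 3 rose, and 22 fell without immature replicate 3. Mettl1, which methylates transfer RNA, fell by 1.44 ± 0.23, and Pus10, a pseudouridine synthase, and Nsun4, a mitochondrial RNA methylase, rose by 1.58 ± 0.11 and 1.41 ± 0.16. Of 142 splicing factors 59 fell, led by Lsm7 (-1.51), Lsm2 (-1.22) and Sf3b5 (-1.18), and 2 rose. Without immature replicate 2 or 3, 38 or 36 of them fell, and leaving out single samples gave 1 to 6 rises, with 5 without immature replicate 1 and 6 without either CCR7+Il12b+ sample. Among 61 genes of nuclear pore and transport 20 fell and 6 rose, the rises including Nxf1, the main messenger RNA exporter, by 1.49 ± 0.13.

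Mitochondrial protein synthesis had the lowest median of all lists, -0.76. Of 77 mitochondrial ribosomal proteins, all above the mark, 59 fell and 1, Mrps7 (0.61 ± 0.14), rose. Mrpl42 read 10.28, 10.11 and 10.22 in immature samples and 8.98, 8.50 and 7.70 in CCR7+Il12b- samples, with replicate 3 lowest, and fell by 1.81 ± 0.26 (adjusted p = 0.000452). Of 64 genes of mitochondrial import and proteolysis 28 fell and 4 rose. Tomm5 of the outer translocase and Chchd4, which oxidises imported proteins, fell, with differences of -1.37 and -1.34, and Htra2, a protease released during cell death, rose by 1.77 ± 0.13. Of 68 genes of the tricarboxylic acid cycle and the mitochondrial carriers 30 fell and 6 rose. Fumarase, Fh1, read 8.99, 9.10 and 9.10 and then 7.96, 7.87 and 7.08, and Idh2, the mitochondrial NADP-linked isocitrate dehydrogenase, fell by 1.27 ± 0.16. The falls in that last list numbered 17 or 18 without immature replicate 2 or 3, and its rises 3 or 2 without either immature replicate 1 or 3 or CCR7+Il12b- replicate 3.

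The endoplasmic reticulum list fell more often than it rose, with 55 of 101 members lower (54.5%), 3 higher (2.97%) and a median of -0.50. Over all genes 14.5% were lower and 9.1% higher. Rpn1, a subunit of the oligosaccharyltransferase, fell by 1.44 ± 0.17, from 8.95, 9.18 and 9.35 to 7.89, 7.73 and 7.53. Spcs2 of the signal peptidase fell by 1.37 ± 0.16. The highest row of Pdia4, a disulfide isomerase, fell by 1.33, but its other row differed by 0.26, so that fall rests on 1 row. Dnajc10, which reduces disulfides of proteins to be degraded, and Sel1l, of the degradation complex in this organelle, rose by 1.16 ± 0.15 and 0.70 ± 0.10. The 3 rises became 7 without either CCR7+Il12b+ sample. In the cytosol, 35 of 96 chaperones and peptidyl-prolyl isomerases fell and 4 rose, with 21 or 22 falls without immature replicate 3 or CCR7+Il12b- replicate 2 or 3 and 2 rises without either immature replicate 2 or 3 or CCR7+Il12b- replicate 3. Of 49 proteasome genes, 16 fell and 2 rose. The largest of these falls were 2 assembly chaperones, Psmg1 (-1.12 ± 0.21) and Psmg3 (-1.07 ± 0.18), and Psme2 of the interferon-inducible cap rose by 0.54 ± 0.10. The 2 rises became 1 without any 1 immature sample or CCR7+Il12b- replicate 3. Falls of the proteasome numbered 9 or 10 without replicate 2 or 3 of either group.

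Genes that make the building blocks of nucleic acids fell more often than they rose. Of 63 genes of nucleotide, serine and folate synthesis 30 fell (47.6%) and 3 rose (4.76%), with a median of -0.45. Over all genes 14.5% fell and 9.1% rose. Ampd3, which deaminates AMP, read 7.44, 7.97 and 7.85 and then 5.78, 6.37 and 6.15, and Dctpp1, which removes stray cytidine nucleotides, fell by 1.46 ± 0.22, and Prps2, which makes the activated ribose, fell by 1.19 ± 0.17. Tk1, thymidine kinase, rose by 1.13 ± 0.20 on its brighter row and differed by 0.52 on the other. Of 119 DNA repair genes 36 fell and 7 rose, led by Tipin, a fork protection factor (-1.74), and 19, 21 or 22 fell without either immature replicate 2 or 3 or CCR7+Il12b- replicate 3. The rises numbered 4 without immature replicate 2. Of 30 replication-dependent histones, a family of near-identical genes whose rows may share signal, 13 fell, and 2 to 8 fell when any 1 sample other than immature replicate 1 was left out of the 2 groups.

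**Figure D4:**
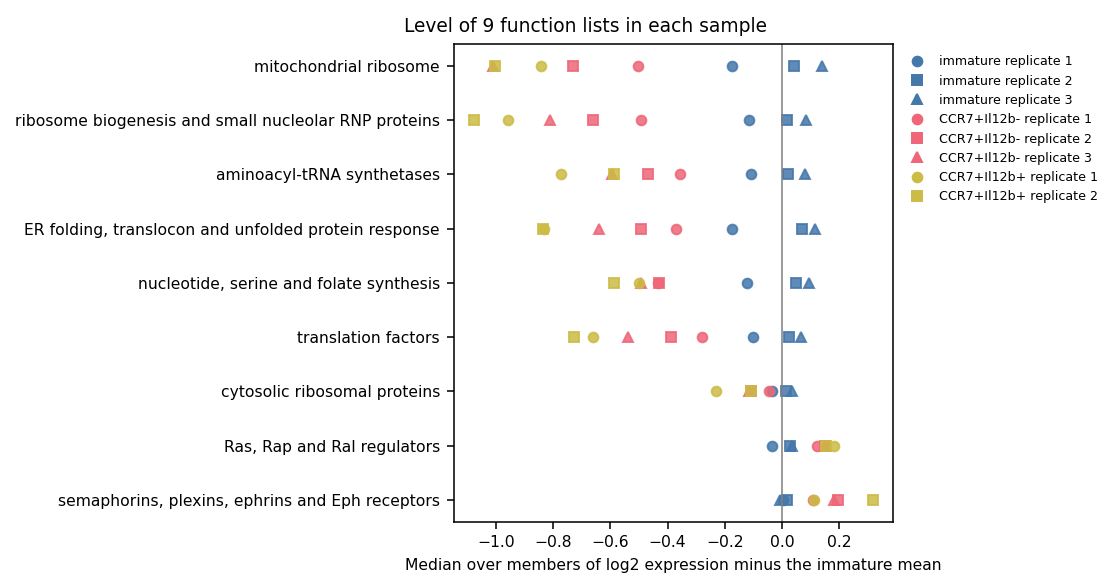
Median over the members of 9 function lists of the log2 expression minus the immature mean (horizontal axis), drawn for each of the 8 samples. For the mitochondrial ribosome the immature samples lie between -0.17 and 0.14 and replicates 1 to 3 of CCR7+Il12b- at -0.50, -0.73 and -1.01; CCR7+Il12b- replicate 3 is lowest of its group in all 7 lists that lie below 0, and cytosolic ribosomal proteins stay between -0.12 and -0.04 in that group.

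The position of replicate 3 in these lists matches its position over all genes. For ribosome biogenesis the medians of the CCR7+Il12b- samples were -0.49, -0.66 and -0.81 and those of the immature samples -0.11, 0.02 and 0.09. The immature samples also differed from each other, with replicate 1 nearest to the CCR7+Il12b- samples in the lists that fell. Without CCR7+Il12b- replicate 3, 82 ribosome biogenesis genes, 50 mitochondrial ribosomal proteins, 46 genes of the endoplasmic reticulum list and 19 synthetases fell.

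At the cell surface, guidance molecules rose more often than they fell. Of 51 semaphorins, plexins, ephrins and Eph receptors, 30 were above the mark, 12 rose and 3 fell, against 9.1% of all genes that rose. Besides Sema6d, Plxnc1, a plexin receptor for Sema7a, rose from 8.94, 8.91 and 9.03 to 11.24, 11.29 and 11.49, a difference of 2.38 ± 0.11, and Sema7a itself, a membrane-anchored semaphorin, rose by 1.72 ± 0.19. Nrp1, a co-receptor for semaphorins and growth factors, fell by 0.92 ± 0.18. Of 49 adhesion molecules 13 rose and 11 fell. Vcam1, the counter-receptor of the integrin VLA-4, rose by 2.57 ± 0.17, and F11r, the junctional protein JAM-A, read 5.04, 5.18 and 5.15 and then 7.46, 7.07 and 7.98. Vcam1 is also in the list of monocyte and macrophage markers. Pecam1, Itga8 and Itgae fell, with differences of -1.79, -1.78 and -1.76. Itgae, which encodes CD103, had groups that did not overlap but a wide spread, at 8.59, 8.97 and 8.06 and 6.84, 7.38 and 6.11.

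Of 46 matrix genes and metalloproteinases 9 rose and 3 fell. Mmp25, a membrane-anchored metalloproteinase, read 5.50, 5.62 and 5.56 and then 7.35, 7.63 and 8.04, and Adam11 and Adam8 rose by 1.73 ± 0.20 and 1.36 ± 0.14. Among 24 serpins and other protease inhibitors 6 rose and 5 fell. Serpinb9, the inhibitor of granzyme B, and Serpinb1a, an inhibitor of neutrophil proteases, rose by 2.09 ± 0.16 and 1.51 ± 0.17, opposite to Serpinb2, Serpinb8 and Serpinb10 of the same family. Among 21 annexins and S100 proteins 3 rose (14.3%) and 4 fell (19.0%), beside 9.1% and 14.5% of all genes. Anxa4 rose by 1.96 ± 0.15, S100a4 rose by 0.94 ± 0.21 and S100a10, a partner of annexin A2, fell by 1.31 ± 0.24. Among 24 tetraspanins Cd53 (-1.09), Tspan13 (-0.92) and Cd9 (-0.92) had the largest of 5 falls (20.8%), and Cd63 and Tspan3 the largest of 3 rises (12.5%).

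Signalling genes changed in both directions within most families. Of 52 enzymes of cyclic nucleotides, 11 rose, 7 without immature replicate 1, and 8 fell. Adcy6 rose while Prkar2b and Prkar2a, regulatory subunits of protein kinase A, fell, with differences of -1.59 ± 0.13 and -1.06 ± 0.12. Akap13, an anchor of that kinase, rose by 1.28 ± 0.13. Of 73 G protein-coupled receptors outside the chemokine family, 14 rose and 15 fell. Adgrg6, an adhesion receptor, read 4.84, 4.62 and 4.73 and then 7.43, 7.54 and 7.82, at least 6.15-fold higher, and Ptger4, a receptor of prostaglandin E2, rose by 1.97 ± 0.12. P2ry14, a receptor of UDP sugars, fell by 1.65 ± 0.30, as P2ry6 and Cysltr1 did. Among 42 G protein subunits and RGS proteins 8 rose and 8 fell, with Gnb4 higher by 2.07 and Rgs18, a brake on receptor signalling, at -1.84.

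Regulators of Ras rose more often than they fell. Of 75 Ras, Rap and Ral regulators, 22 rose and 13 fell. Spred1, an inhibitor of the path from Ras to MAP kinase, went from 5.75, 5.85 and 6.05 to 8.71, 8.95 and 8.97, a difference of 2.99 ± 0.12 (adjusted p = 4.37e-08). The Ras inactivator Rasal2 and the small GTPase Gem rose by 2.43 ± 0.19 and 2.42 ± 0.17, and Rasgrp4, an activator of Ras, and Rasa3, an inactivator, fell, with differences of -1.19 and -1.30. Among 49 MAP kinases and dual-specificity phosphatases 10 rose and 11 fell. The phosphatase Dusp5 rose by 2.06 ± 0.15 and Dusp6 fell by 1.47 ± 0.18, both of which act on ERK, and Mapk14, which encodes p38α, fell by 1.20 ± 0.14 beside its activator Map2k6.

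Of 83 genes of the WNT, Notch and Hippo pathways 13 rose (15.7%) and 11 fell (13.3%), beside 9.1% and 14.5% of all genes. The falls numbered 6 without immature replicate 3 or CCR7+Il12b- replicate 3. Jag1, a Notch ligand, read 4.99, 4.86 and 5.08 and then 7.33, 7.41 and 7.89, at least 5.77-fold higher, while Hes1, a common Notch target, fell by 1.40 ± 0.20 and Fzd1, a WNT receptor, fell by 1.53 ± 0.17. Of 72 phosphoinositide and phospholipase genes 16 rose and 10 fell, with 6 falls without immature replicate 3. Pik3r1, a regulatory subunit of PI3 kinase, rose by 1.28 ± 0.11, and Plcb2, a phospholipase, and Inpp5d, the phosphatase SHIP1, fell, with differences of -1.43 and -1.06.

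Of 104 ion channel genes, 71 above the mark, 27 rose and 9 fell, and 13 rose without immature replicate 3. Kcnk6, a leak potassium channel, read 7.27, 7.36 and 7.61 and then 9.56, 9.90 and 10.09, and Cacnb1, a subunit of calcium channels, rose by 2.07 ± 0.11. Ano6, a calcium-gated channel and lipid scramblase, fell by 1.46 ± 0.15, and Cacna1e fell by 1.22 ± 0.16. Of 113 synaptic and neuronal genes, many of them near the mark, 8 rose and 2 fell, and 3 or 4 rose without any 1 immature sample or CCR7+Il12b- replicate 2 or 3. The 8 and 2 are 7.08% and 1.77%, below the 9.1% and 14.5% of all genes. Among 95 other solute carriers of the plasma membrane 18 rose and 7 fell, and 11 rose without immature replicate 2 or 3. Slc2a6, a glucose transporter family member of lysosomes, rose from 5.93, 6.27 and 5.92 to 8.96, 8.80 and 9.07, by 2.90 ± 0.14. Slco3a1 fell by 1.48 ± 0.19, opposite to Slco5a1.

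Amino acid transporters changed in both directions, with 9 of 34 higher and 9 lower. The taurine transporter Slc6a6 rose by 1.34 ± 0.11. Slc7a5 and Slc1a5, carriers of large neutral amino acids and glutamine, fell, with differences of -0.83 ± 0.19 and -0.81 ± 0.15. Without single samples, the 9 rises became 4 (immature replicate 3) or 5 (CCR7+Il12b- replicate 2 or 3), and the 9 falls 5 (immature replicate 2). Of 52 genes of zinc, iron and copper, 8 rose (15.4%) and 12 fell (23.1%), beside 9.1% and 14.5% of all genes. Without immature replicate 3 or CCR7+Il12b- replicate 3, 7 of them fell. Mt2, a metallothionein, rose by 1.09 ± 0.19, and Tfrc and Trf, the transferrin receptor and transferrin, fell, with differences of -1.03 and -1.22. Among 50 ABC transporters and P-type ATPases 11 rose and 7 fell. The lipid flippase Atp11a and the calcium pump Atp2b1 rose by 1.78 and 1.48. These 7 falls became 4 without replicate 2 or 3 of either group.

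Genes of lipid metabolism fell more often than they rose, as did genes over the whole array, of which 14.5% fell and 9.1% rose. Of 97 genes of fatty acids and phospholipids, 34 fell (35.1%), 22 or 21 without immature replicate 2 or 3, and 9 rose (9.28%). The desaturases Fads1 and Scd2 fell, with differences of -1.35 ± 0.20 and -1.29 ± 0.23, while Chka, the kinase that begins phosphatidylcholine synthesis, rose from 6.91, 6.93 and 7.14 to 9.58, 9.77 and 9.75, and Fabp5, a fatty acid carrier, rose by 2.36 ± 0.15. Of 47 sphingolipid and lysosomal lipid genes 12 fell (25.5%) and 3 rose (6.38%). Cers6, a ceramide synthase, rose by 2.42 ± 0.13, and the ceramidase Acer3 and the amidase Naaa fell, with differences of -1.52 ± 0.27 and -1.92 ± 0.26. Naaa is also a marker of XCR1+ dendritic cells.

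Enzymes of lipid mediators and retinoids had 5 of 61 members higher and 14 lower, with 8 or 9 lower without immature replicate 3 or CCR7+Il12b- replicate 3. Alox5ap, needed for leukotriene synthesis, read 10.83, 11.11 and 11.07 and then 9.75, 9.74 and 8.49, a difference of -1.67 ± 0.27. Ptgs2, the inducible cyclooxygenase, rose by 1.16 ± 0.15 while Hpgd, on the side of prostaglandin breakdown, fell. Aldh1a2, which makes retinoic acid, read 5.54, 5.58 and 5.55 and then 7.08, 6.83 and 7.54, and Dhrs3, which reduces retinal, rose by 1.50 ± 0.14.

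Of 72 redox genes 9 rose and 21 fell. Gclc was the largest rise, followed by Idh1, the cytosolic NADP-linked isocitrate dehydrogenase (1.81 ± 0.13), and Prdx4, Gstp1 and Taldo1 fell, with differences of -1.54, -1.42 and -1.35. Idh1 thus rose where its mitochondrial counterpart Idh2 fell. Of 71 Nudix, phosphatase and NAD genes 13 rose and 19 fell, with 11, 10 or 12 lower without immature replicate 2, immature replicate 3 or CCR7+Il12b- replicate 3. Nampt, the rate-limiting enzyme of NAD salvage, rose by 1.67 ± 0.11, and Nudt5, which cleaves ADP-ribose, fell by 1.56 ± 0.18. Of 51 genes of arginine, polyamines and other amino acids 6 rose (11.8%) and 9 fell (17.6%), near the 9.1% and 14.5% of all genes. There were 5 falls without immature replicate 2 or CCR7+Il12b- replicate 3. Arg2, the mitochondrial arginase, rose at least 1.65-fold, and Kmo of the kynurenine path and Srm, spermidine synthase, fell, with differences of -1.72 ± 0.19 and -1.39 ± 0.14.

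Among sugar and sulfate enzymes, single members changed in both directions. Of 60 genes of sulfation and proteoglycans 8 rose (13.3%) and 11 fell (18.3%), near the 9.1% and 14.5% of all genes. The falls numbered 7 without either immature replicate 2 or 3 or CCR7+Il12b- replicate 3. Papss2 stood out, Sdc4, a cell-surface proteoglycan, rose by 1.12 ± 0.11, and Extl3, which begins heparan sulfate chains, fell by 1.59 ± 0.26. Of 76 glycan enzymes 16 rose (21.1%) and 17 fell (22.4%), 9 or 11 without immature replicate 2 or 3. St8sia6 and St8sia1, which add sialic acid to sialic acid, rose by 1.87 ± 0.21 and 1.26 ± 0.22, and Gmds, which begins the synthesis of GDP-fucose, fell by 1.21 ± 0.16.

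Among organelles, lysosomes changed in both directions. Of 81 lysosomal genes 15 rose, 9 without immature replicate 2, and 21 fell. Lamp1, a main membrane protein of lysosomes, rose from 8.96, 9.16 and 9.12 to 10.78, 10.62 and 10.70, and Lgmn, asparagine endopeptidase, and Atp6v0a1, of the proton pump, rose by 1.34 ± 0.12 and 1.32 ± 0.16. Cd68 and Arsb, a sulfatase, fell, with differences of -1.38 ± 0.21 and -1.53 ± 0.28. Of 37 peroxisome genes 3 rose (8.11%) and 8 fell (21.6%), beside 9.1% and 14.5% of all genes. These falls numbered 5 without replicate 2 or 3 of either group. Crot, which exports fatty acids from peroxisomes as carnitine esters, fell by 1.31 ± 0.15. Among 52 autophagy genes 8 rose (15.4%), led by the receptor Sqstm1 (1.52 ± 0.11), and 5 fell (9.62%). The falls of autophagy genes numbered 3 without either immature replicate 2 or 3 or CCR7+Il12b- replicate 3. Of 111 Rab genes and regulators 22 rose and 15 fell, with 8 or 7 falls without immature replicate 2 or 3. Tbc1d17 and Rabgap1l rose by 1.93 and 1.91, and Rab7b, of the late endosome, fell by 1.79 ± 0.23. Of 120 genes of SNAREs, sorting and secretion 13 rose and 34 fell, 18 or 19 without immature replicate 2 or 3. Stx11, a syntaxin known from cytotoxic granules, rose by 1.74 ± 0.10, and Unc119b, a relative of Unc119, fell by 1.68 ± 0.22.

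In the cytoskeleton, 27 of 141 actin and myosin genes rose and 20 fell, 12 or 13 without immature replicate 2 or 3. After Fscn1, Swap70, which binds actin and PIP3, rose from 7.27, 7.46 and 7.50 to 10.32, 10.32 and 10.57 (3.00 ± 0.13), and Scin, a severing protein, rose at least 3.14-fold. Was and Hcls1, both promoters of branched actin in blood cells, fell, with differences of -1.06 ± 0.13 and -1.03 ± 0.15. Of 102 tubulin, motor and septin genes 14 rose (13.7%) and 15 fell (14.7%), beside 9.1% and 14.5% of all genes. The kinesin Kif13b rose by 2.21 ± 0.20, and Septin3, Septin9 and Septin6 had the largest falls, with differences of -1.85, -1.39 and -1.25. Of 104 centrosome and cilium genes 21 fell, led by Sass6, a centriole assembly protein (-1.80 ± 0.29), and 7 rose, 4 without immature replicate 2 or CCR7+Il12b- replicate 3. Of 217 ubiquitin ligases 40 rose (18.4%) and 30 fell (13.8%). Cblb, known as a brake on lymphocyte activation, rose by 2.23 ± 0.10, and Klhl6 fell by 1.56 ± 0.19. Of 112 conjugating enzymes and deubiquitinases 18 rose (16.1%) and 20 fell (17.9%), 11 or 13 without immature replicate 2 or 3. Over all genes 9.1% rose and 14.5% fell.

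Of 201 homeobox, KLF, SOX and other developmental factors 28 rose and 26 fell, 14 or 17 without either immature replicate 2 or 3 or CCR7+Il12b- replicate 3. The 28 and 26 are 13.9% and 12.9%, beside 9.1% and 14.5% of all genes. Foxp4, a forkhead factor, went from 6.76, 6.81 and 6.97 to 9.50, 9.64 and 9.76, a difference of 2.79 ± 0.11 (adjusted p = 4.37e-08), and Etv3 and Zbtb10 rose by 2.50 ± 0.17 and 2.37 ± 0.21. Bcl11a, Fli1 and Hhex, factors of early blood cell development, fell, with differences of -1.62 ± 0.14, -1.57 ± 0.14 and -1.43 ± 0.24. Of 69 nuclear receptors and clock genes 11 rose and 3 fell, with 5 to 7 rises without any 1 immature sample or CCR7+Il12b- replicate 3. Ncoa7, Bhlhe40 and Nr4a3 led the rises at 1.72, 1.70 and 1.05, and Rxra fell by 0.68 ± 0.15.

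Of 110 enzymes that modify histones or DNA, 24 rose and 20 fell, with 13, 11 or 12 falls without immature replicate 2, immature replicate 3 or CCR7+Il12b- replicate 3. Kdm2b, a histone demethylase, and Kmt2a, a methyltransferase, rose by 1.51 ± 0.15 and 1.21 ± 0.14, and Kat2a and Prmt5 fell, with differences of -1.16 ± 0.16 and -1.10 ± 0.12. Among 75 genes of RNA decay and small RNA 12 rose and 19 fell. Zc3h12c and Zc3h12d, relatives of the nuclease regnase-1, rose by 1.83 ± 0.13 and 1.38 ± 0.15, and Zfp36l1 rose by 1.14 while its relative Zfp36l2 fell by 1.16. Exosc8 and Exosc9, of the RNA exosome, fell, with a difference of -1.18 each. Of 341 zinc finger genes named Zfp 21 rose and 43 fell, with 12 rises without immature replicate 3 and 26 to 28 falls without either immature replicate 2 or 3 or CCR7+Il12b- replicate 3. The 21 and 43 are 6.16% and 12.6%, below the 9.1% and 14.5% of all genes. Besides Zfp872 the largest differences were smaller, with Zfp809 at 1.18 and Zfp710 at -1.45.

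The array also holds rows for microRNA genes, which were looked at after the values were seen. MicroRNAs are short RNAs that pair with messenger RNAs, mainly through bases 2 to 8, the seed. These rows report the hairpin or its precursor transcript, not the mature strand, so no arm can be read from them. Of 297 microRNA genes, 103 above the mark, 25 rose and 0 fell (20 of the 25 above the mark). The 25 are 8.42% of these genes, beside the 9.1% of all genes that rose. Fewer microRNA genes were readable, with 103 of 297 above the mark against 12581 of 19938 over all genes. These shares therefore do not compare like sets, and whether rises were more frequent among readable microRNA genes was not tested. There were 13 to 27 rises and 0 falls in the fits that left out 1 sample. The fits with 13, 14 or 17 rises left out immature replicate 2, CCR7+Il12b- replicate 3, or immature replicate 3 or CCR7+Il12b- replicate 2. The median difference of the microRNA genes was 0.13, near the 0.10 of olfactory and vomeronasal receptor genes, of which 24 of 1194 rose and 1 fell.

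Above the mark, 7 microRNA genes kept their call under every alternative, namely Mir155, Mir202, Mir680-2, Mir181b-2, Mir191, Mir341 and Mir425. For 6 of them 1 mature sequence each is shown, as RefSeq gives it for GRCm38.p6, with the seed in capitals, since microRNAs with 1 seed can share targets. Mir680-2 is not shown. The sequences of Mir181a-2 and Mir181c are added because they carry the seed of Mir181b-2.
mmu-miR-155-5p: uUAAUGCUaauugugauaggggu
mmu-miR-202-3p: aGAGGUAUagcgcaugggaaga
mmu-miR-191-5p: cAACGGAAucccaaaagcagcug
mmu-miR-341-3p: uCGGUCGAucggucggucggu
mmu-miR-425-5p: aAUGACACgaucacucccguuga
mmu-miR-181b-5p: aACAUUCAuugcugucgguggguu
mmu-miR-181a-5p: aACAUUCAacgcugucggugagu
mmu-miR-181c-5p: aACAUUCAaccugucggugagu

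Mir155, on chromosome 16, read 5.49, 5.75 and 5.18 in the immature samples and 7.07, 7.71 and 6.76 in the CCR7+Il12b- samples, a rise of 1.70 ± 0.24 (adjusted p = 0.000429). The groups were more than 1 log2 unit apart, and the call held in every fit. Mir202 rose by 1.53 ± 0.28, but its immature samples were spread, at 6.15, 5.95 and 4.92, against 6.76, 7.49 and 7.38. Mir680-2 rose by 1.47 ± 0.32, and Mir191, Mir341 and Mir425 rose by 0.68 ± 0.16, 0.64 ± 0.13 and 0.62 ± 0.14. Of the genes whose mature 5p strand carries the shared seed, Mir181b-2 and Mir181a-2 had immature means below the mark and rose at least 1.70-fold and 1.06-fold, and Mir181c rose by 0.39 ± 0.10. The first 2 of these genes are neighbours on chromosome 2. The call of Mir181b-2 held in every fit, with a highest adjusted p of 0.0307. That of Mir181a-2 was lost without immature replicate 1 or CCR7+Il12b- replicate 2 or 3 and after quantile normalization, and that of Mir181c without either immature replicate 1 or 2 or CCR7+Il12b- replicate 2, with adjusted p up to 0.0834 and 0.0568. Mir15a, higher by 1.04, and Mir142, higher by 0.86 and specific to blood cells, each lost their call without CCR7+Il12b- replicate 2 or 3, without immature replicate 1 or 3 and after median centring, and Mir15a also without immature replicate 2 (adjusted p up to 0.134 and 0.124).

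**Figure D5:**
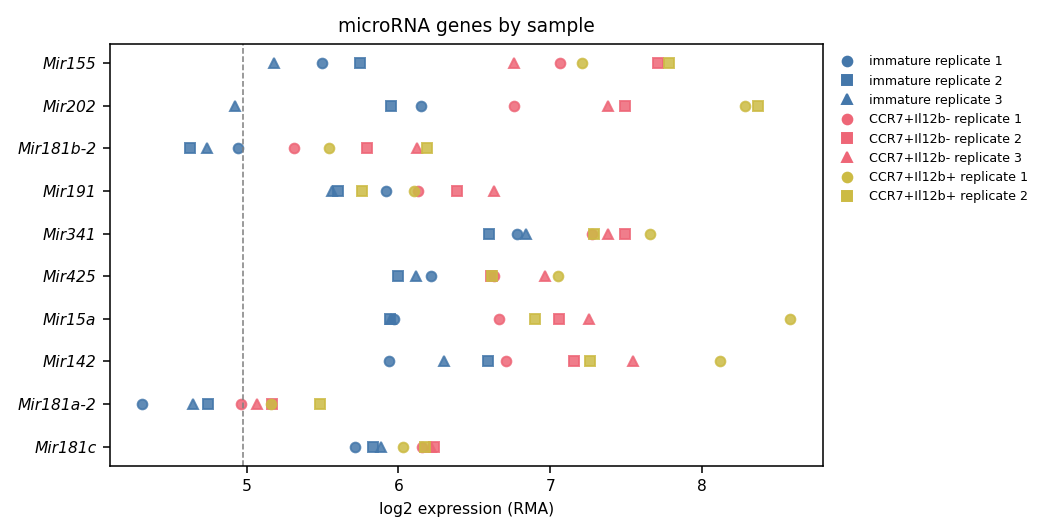
Log2 expression (horizontal axis) of 10 microRNA genes in each of the 8 samples, with colour for the group and shape for the replicate; the dashed line is the background mark of 4.98. Mir155 lies between 5.18 and 5.75 in the immature and between 6.76 and 7.71 in the CCR7+Il12b- samples, and most other genes are separated by less than 1 log2 unit.

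Promoters were compared as a property that the choice of samples did not use. A RefSeq sequence of 300 bases (250 before and 50 after the start, GRCm38.p6) was found for 15563 of the 19938 genes, and 5 motifs were searched on both strands. The NF-kB consensus, a site for the factor that drives much of dendritic cell maturation, was in 4.76% of all promoters, in 7.37% of those of the genes that rose and in 11.3% (12 of 106) of those that rose by at least 2 on the log2 scale. It was in 3.55% of those that fell. The ETS-type motif CCGGAAG, common in promoters of housekeeping genes, was in 12.5% of all promoters, in 23.2% of those that fell, in 43.0% of ribosome biogenesis genes and in 35.3% of mitochondrial ribosomal proteins, against 9.78% of those that rose. The E-box CACGTG was in 8.4% of all promoters, 8.22% of those that rose and 11.5% of those that fell, with 20.2% for ribosome biogenesis. The cyclic AMP element TGACGTCA was in 2.5% of all, 2.41% of those that rose and 3.43% of those that fell. The interferon element GAAANNGAAA was in 3.32%, 3.83% and 2.88%, and in 6.6% (7 of 106) of those that rose by at least 2. In that last set the E-box was in 8.49%, the ETS-type motif in 8.49% and the cyclic AMP element in 1.89%. The median share of G and C was 57.7% over all promoters, 61.3% for genes that rose and 60.0% for genes that fell. None of the 5 motifs contains another, and a match is a description of the sequence and no measure of binding. Of all 19938 genes, 7357 had both means below the mark, against 189 of the 4706 that passed the test. The shares over all promoters and over called genes therefore do not compare like sets. Whether the shares differ among readable genes was not tested.

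The 200 bases before the start are shown for 4 genes chosen after the search, with the matches in capitals, as examples of 3 of the motifs. Papss2 and Anxa4 rose and hold the NF-kB consensus, Lamp1 rose and holds 4 E-boxes, and Mrpl22, a mitochondrial ribosomal protein that was at least 1.93-fold lower, holds the ETS-type motif.
Papss2 (chr19:32595515-32595714, plus strand): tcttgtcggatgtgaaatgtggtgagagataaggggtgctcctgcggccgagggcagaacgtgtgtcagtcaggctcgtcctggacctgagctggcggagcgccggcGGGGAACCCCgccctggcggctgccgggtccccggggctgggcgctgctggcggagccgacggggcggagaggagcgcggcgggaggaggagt
Anxa4 (chr6:86793585-86793784, minus strand): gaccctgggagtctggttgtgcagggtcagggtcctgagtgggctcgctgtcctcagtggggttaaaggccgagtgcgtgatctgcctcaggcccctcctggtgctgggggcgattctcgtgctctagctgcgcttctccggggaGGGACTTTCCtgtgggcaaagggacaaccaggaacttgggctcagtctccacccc
Lamp1 (chr8:13158961-13159160, plus strand): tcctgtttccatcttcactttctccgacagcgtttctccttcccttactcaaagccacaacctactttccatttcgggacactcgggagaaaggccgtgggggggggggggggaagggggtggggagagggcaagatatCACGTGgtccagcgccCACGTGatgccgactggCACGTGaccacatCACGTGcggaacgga
Mrpl22 (chr11:58171464-58171663, plus strand): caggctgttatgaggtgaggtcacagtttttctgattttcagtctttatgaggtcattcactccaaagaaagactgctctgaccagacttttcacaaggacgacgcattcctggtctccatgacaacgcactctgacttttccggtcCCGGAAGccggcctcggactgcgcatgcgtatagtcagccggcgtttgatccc

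The match begins 93 bases before the start in Papss2 and 55 bases before it in Anxa4. Those of Lamp1 begin between 61 and 15 bases before the start, and that of Mrpl22 53 bases before it. Of the 20 largest rises, 14 had a promoter in the table and 2 of them, Papss2 and Stap2, held the NF-kB consensus within the 300 bases. Of the 20 largest falls, 16 had one and 0 held it.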

How the data were processed

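Expression was measured on 8 arrays of sorted spleen XCR1+ dendritic cells. The values are log2 expression values as deposited by the authors, and RMA and the R package oligo are named in the submitters' processing notes. RMA corrects background, normalizes by quantiles and summarises probes, so a change shared by most genes would be removed. Per the labels, RNA was amplified in 2 rounds before hybridisation.

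Of 35556 rows, 21789 carried exactly 1 symbol in the platform annotation, giving 19938 genes, each read from its row with the highest mean over the 8 arrays. Group means were fitted with limma 3.58.1 in R 4.3.3 over all 8 arrays (lmFit, eBayes), without a replicate block, and the Benjamini-Hochberg adjustment covered all 19938 genes. The script was tested on simulated data. Fold bounds, for a group mean below the mark, use the mark in place of each sample of that group below it. The number of arrays limits the precision.

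Named genes are the sort genes and markers, the 20 largest rises and 20 largest falls whose groups do not overlap, that lie above the mark in 1 group and belong to no immune list, and in each function list at most 3 rises and 3 falls with the largest difference, leaving out predicted genes and multigene families. Of the named genes, those that lost their call in a fit without 1 array were passed over in the text. The microRNA genes, the promoters shown and other markers were chosen after their values were seen. The comparison, the lists and the rule were chosen with earlier results of these data known. Sequences were matched by gene identifier to RefSeq tables for GRCm38.p6. Alternatives were 3 normalizations, 2 filters, the mean of all rows, array weights, blocks by replicate number, a fit of the 2 groups alone and leaving out each array. The result of 1 function list is not reported here.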

Additional observations from a re-analysis of the deposited data

Results flagged for a closer look

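Of the rows of the array without a symbol in the annotation used here, 12146 in all and 6296 of them with a group mean above the background mark, 447 of those above the mark were higher and 306 lower in CCR7+Il12b- than in immature cells at an adjusted p under 0.05 in a limma fit over the rows. They drew attention because they carry signal that no comparison by gene uses. The largest differences among them were 5.14 and -2.35 on the log2 scale, and these rows are not named here. Rows with several symbols, 1621 in all and 937 above the mark, had 53 higher and 101 lower.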

How the results depend on the processing

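The 4706 calls became 4318 with the replicate number as a block, 4428 with it as a random block, 4962 with the 2 groups alone, 4607 to 4718 under other normalizations and 6492 with array weights. The fits without 1 array gave 3290 to 4962 calls, with 3290, 3302 and 3595 without immature replicate 3, immature replicate 2 and CCR7+Il12b- replicate 3. Calls higher in CCR7+Il12b- cells numbered 2740 with array weights against 1814 and 1349 to 1982 without 1 array, and calls lower numbered 1937 to 2980 without 1 array. The share of calls that were higher lay between 31.3% (median centring) and 44.9% (cyclic loess) against 38.5%. Same-numbered samples of the 2 groups deviated with correlations of -0.169, 0.0581 and -0.159, and differently numbered ones with -0.0823 to 0.187. Deviations from a mean of 3 samples depend on each other, so these values cannot settle whether equal numbers share a mouse or a sort. The main fit used no pairing, and 3 named genes lost their call under the block. Of 360 genes that the rule names, 358 passed the test, 337 kept direction and call under all 18 alternatives, 0 turned direction, and 22 lost the call in at least 1 of the 8 fits without 1 array. Of the 120 list counts, 59 moved by over 1.5 times in at least 1 alternative, most often without immature replicate 3 (36), immature replicate 2 (31) or CCR7+Il12b- replicate 3 (26), and 14 did under cyclic loess. MicroRNA genes called higher numbered 51 with array weights and 17 after median centring. Of 7357 genes with both means below the mark 189 passed the test, and their levels cannot be read.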
